A study of Branchiostoma lanceolatum with 24 samples.

Results

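A set of 16 transcriptome contigs, of 96094 in all, was chosen in the European amphioxus Branchiostoma lanceolatum. These were lower than in controls at each of 3 collection times in embryos exposed to SU5402 from 15.5 h post fertilization (hpf). By library totals, they were near the control level in embryos exposed from 5 hpf. SU5402 blocks the tyrosine kinase of fibroblast growth factor (FGF) receptors. FGF ligands act through these receptors on the Ras and ERK kinase cascade, which changes the transcription of target genes. In amphioxus, a cephalochordate, FGF signalling is known for its part in forming the anterior somites. The contigs are named by number, and neither the count table nor the RefSeq gene table for assembly klBraLanc5.hap2, which matched 0 of the identifiers, pairs them with a gene. What the 16 contigs encode is therefore not given here, and no FGF pathway list could be read.

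RNA was sequenced from mixes of whole embryos in 24 libraries. In the late series, 50 µM SU5402 or 0.1% DMSO, the solvent control, was present from 15.5 hpf, and sampling followed 3, 6 or 9 h later, which is 18.5, 21.5 or 24.5 hpf. In the early series the same agents were present from 5 hpf, with sampling at 8, 11 or 14 hpf. There were 2 libraries for each of the 12 combinations, and the labels do not say whether these came from separate spawnings or dishes. Whole embryos were sequenced in bulk, so fewer cells of a type and less RNA per cell cannot be told apart. Depth was 10866511 to 18924324 reads after 6 h of exposure and 27687922 to 39988564 reads in the remaining 16 libraries, and no library was set aside.

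Levels are given as CPM, the count of a contig scaled to the total reads of its library. Contig lengths are not in the table, so a level is a share of reads and is not compared between contigs as transcript abundance. A contig was a member if, at each late time, its highest SU5402 library was at most 0.67 times its lowest DMSO library with a mean of at least 5 CPM in DMSO. At each early time the ratio of mean SU5402 to mean DMSO CPM had to lie in a band from 0.75 to its inverse rounded to 2 decimals, with a mean of at least 2 CPM in DMSO. These values chose the contigs, so the SU5402 to DMSO ratios below are a description and were not tested. Of contigs that met the DMSO level, 7% were lowered by this limit at 3 h, 7.17% at 6 h and 4.93% at 9 h of late exposure. At all 3 times together 259 contigs were lowered. Of these, 115 were below the early DMSO level in at least 1 pair. Among the other 144 the early ratio was under the band at all 3 early times in 43 contigs, over it at all 3 in 1, and within it at all 3 in 16. In 12 contigs the late limit was also met in all 3 early pairs.

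The limits pass through a continuous range of values. ContigAmph90163 and ContigAmph12653 lay just inside the late limit, with largest library ratios of 0.662 and 0.643, and ContigAmph83351 and ContigAmph6077 just outside it, with 0.677 and 0.68. At the low end of the early band, ContigAmph91790 and ContigAmph94498 were inside with lowest ratios of 0.763 and 0.776, and ContigAmph19729 and ContigAmph13365 outside with 0.746 and 0.741. At the high end, ContigAmph46346 and ContigAmph93921 were inside, each with a highest ratio of 1.27, and ContigAmph15162 and ContigAmph33713 outside, with 1.37 and 1.43. When TMM factors (trimmed means of log ratios between libraries) scaled the totals, the rule found 10 contigs, 9 of them among the 16. The members lost were ContigAmph3536, ContigAmph12653, ContigAmph18718, ContigAmph21232, ContigAmph91790, ContigAmph93921 and ContigAmph94498. TMM scaling multiplied early ratios of SU5402 to DMSO by about 0.934, 0.88 and 0.952 at 3, 6 and 9 h, so they lay lower than by library totals. By library totals, median early ratios of the 16 were 0.95, 0.94 and 0.93 at 3, 6 and 9 h. Over the 14452 contigs that met the DMSO level in all 6 pairs the medians were 0.86, 0.87 and 0.92. An early ratio of 1 by library totals was thus above the median of such contigs.

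**Figure D1:**
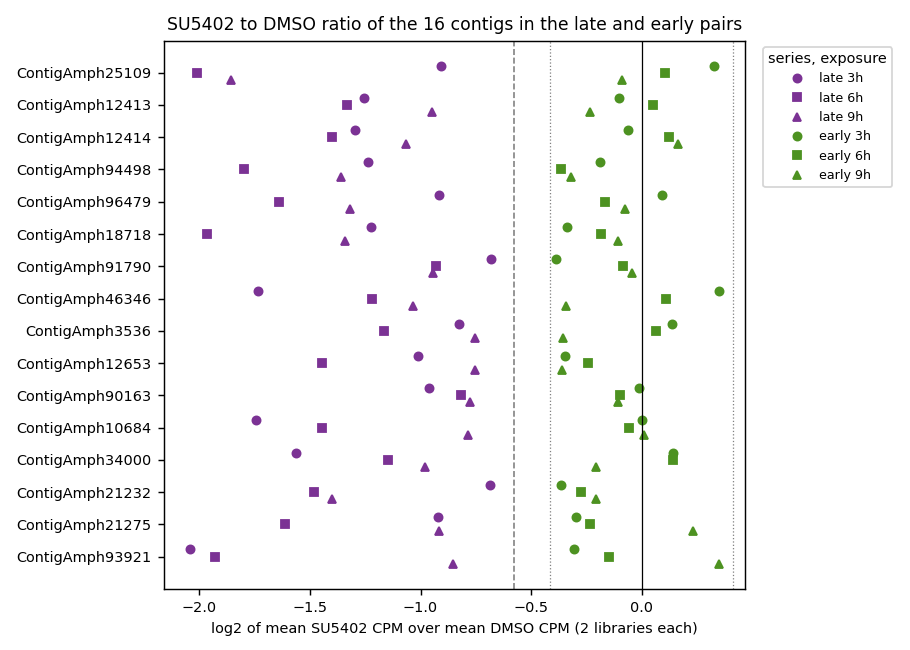
Ratio of mean SU5402 to mean DMSO CPM (log2, horizontal axis) for each of the 16 contigs at 3, 6 and 9 h of late (purple) and early (green) exposure. The dashed line marks the late limit of 0.67, the dotted lines the early band. Late ratios lie between 0.243 and 0.624 and early ratios between 0.763 and 1.27, as the rule requires, and 10 of 16 contigs have their lowest late ratio at 6 h.

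The rule was also applied to libraries of 1 number at a time and its outcome read in the libraries it had not used. When applied to the libraries numbered 1 alone, it chose 16 contigs, and 13 of these met the late limit at all 3 times in the libraries numbered 2, against 1.93% of the 14077 contigs with the same DMSO levels. Chosen on the libraries numbered 2, there were 30 contigs, and 14 met the late limit at all 3 times in the libraries numbered 1, against 1.38% of 14452. Median late ratios in the unused libraries were 0.493, 0.442 and 0.494 at 3, 6 and 9 h for the 16 and 0.5, 0.37 and 0.662 for the 30, of which 16 met the limit at 9 h. The early band was met at all 3 times by 5 of the 16 and 11 of the 30, where 22.4% and 19.9% of contigs of the same levels met it. The late limit and the early band were met together by 3 of the 16 and 3 of the 30. With the numbers of the SU5402 early 9 h libraries crossed, an alternative chosen after seeing the data, 9 of 16 and 16 of 37 met the early band, against 25.4% and 21%, and 6 of 16 and 6 of 37 met both. These shares were not tested. Before crossing, 6 of the 16 contigs chosen on the libraries numbered 1, and 7 of the 30, were among the 16 members. The shares therefore describe largely other contigs. Late libraries of a group lay close together, so a contig low in 1 was likely to be low in the other, and the shares are a description. The 2 libraries of a group may be technical replicates, so agreement between them does not show that the lowering recurs in other embryos.

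Late replicates lay closer together than early ones. The higher library of a group was 1.09 times the lower at the median over the 16 contigs in the late series and 1.23 times in the early series. The medians over all 14452 contigs with the same DMSO levels were 1.07 in the late and 1.14 in the early series. Single early libraries ranged beyond the band that the means met. Of 64 ratios of 1 SU5402 to 1 DMSO library, 47 lay within the band at 3 h, 43 at 6 h and 49 at 9 h. All SU5402 libraries were below all DMSO libraries for 4 contigs at 3 h, 3 at 6 h and 2 at 9 h of early exposure, where 23.2%, 21.6% and 24.7% of the contigs within the band were. They were all above for 1, 0 and 1 contigs, where 14.1%, 13.1% and 17.2% were. Every library ratio lay within the band in 3 of the 16, ContigAmph10684, ContigAmph90163 and ContigAmph93921. The ratios of ContigAmph93921 nevertheless changed direction, from 0.774 to 0.848 at 3 h to 1.225 to 1.32 at 9 h. No share over other contigs was taken for this count of 3.

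ContigAmph25109 carried the largest early spread. Its SU5402 libraries had 1.75 and 22 CPM at 8 hpf, 1.32 and 12.6 CPM at 11 hpf and 15.3 and 2.15 CPM at 14 hpf, in the order of their numbers. The DMSO libraries had 0.59 and 18.4 CPM, 0.527 and 12.5 CPM, and 2.84 and 15.8 CPM. In 5 of the 6 early groups the library numbered 2 was the high one, and in SU5402 at 14 hpf it was the library numbered 1. Over 24887 contigs, deviations of same-numbered early libraries from their group means correlated between groups at 0.509 to 0.767, except for SU5402 at 14 hpf, whose deviations ran the other way against every other group, at -0.524 to -0.694. The labels do not say what the number marks. The early mean of ContigAmph25109 is a mean of a low and a high library in each group, and its place in the set rests on these means.

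The level of control embryos differed between the series, and the 16 contigs lay on both sides. The mean DMSO level over the late series was 0.159 to 15.8 times that over the early series, with a median of 1.09, beside a median of 1.17 for all contigs of the same levels. The nearest control before late exposure began was DMSO at 14 hpf, from the early series. Setting late levels against it compares different series, and stage and series cannot be told apart. In SU5402 embryos 9 contigs stood below this 14 hpf level at all 3 late times, 4 above it at all 3, and 3 on both sides. Median ratios to it were 0.604, 0.378 and 0.522 after 3, 6 and 9 h of late SU5402. Over the 14452 contigs of the same levels they were 1.1, 1.15 and 1.15. The rule chose low late SU5402 levels, which favours standing below, and no share over other contigs was taken for these counts. Without DMSO at 14 hpf replicate 1, ContigAmph91790 was no longer above at all 3 times, with a lowest ratio of 0.98, and ContigAmph18718 was below at all 3, with a highest ratio of 0.925.

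**Figure D2:**
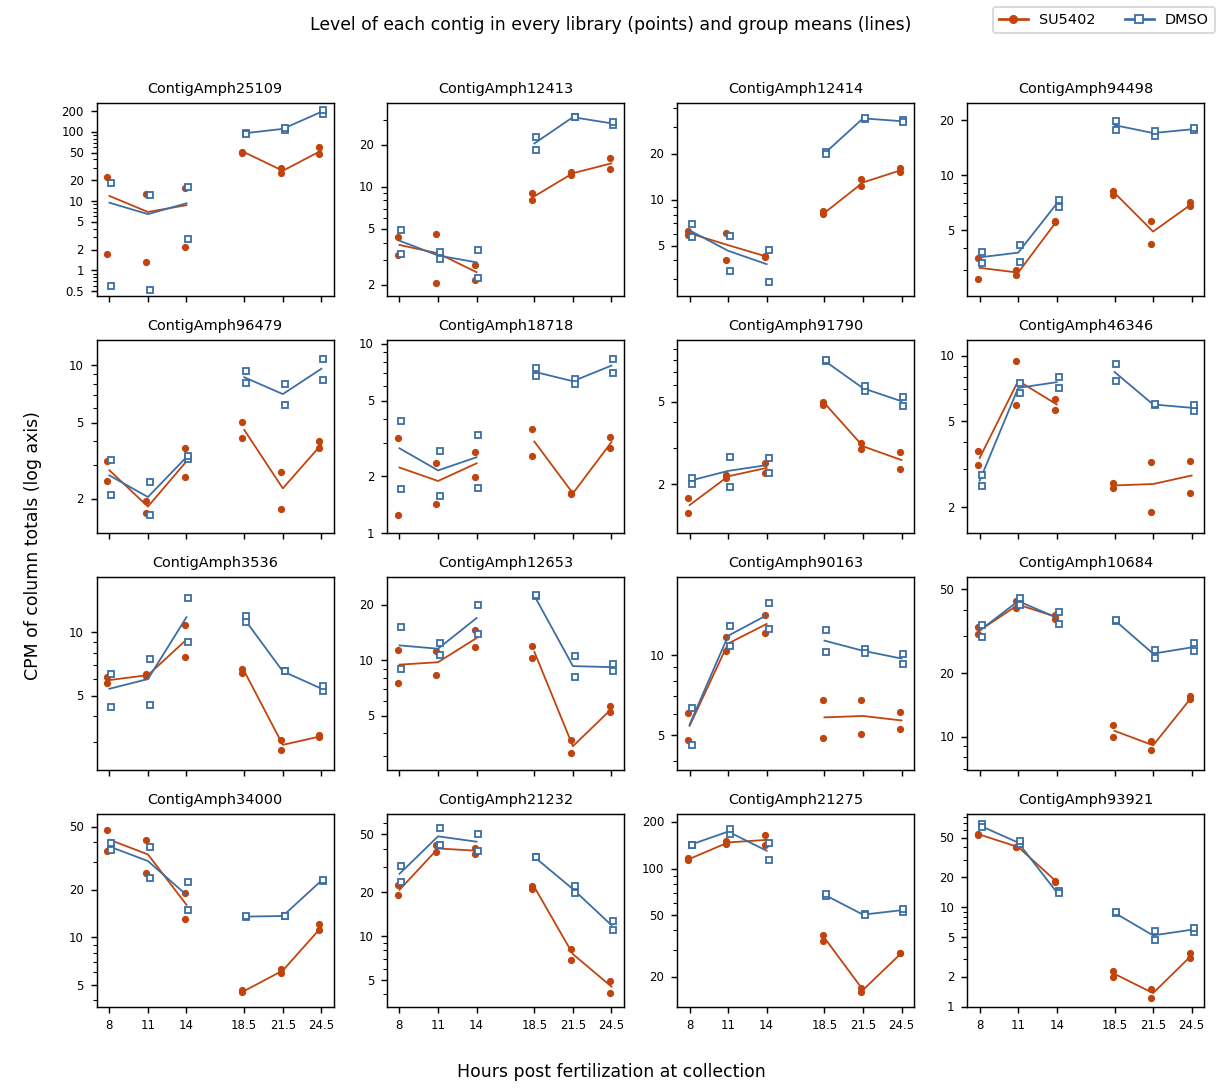
CPM (log axis) of each contig in each of the 24 libraries against hours post fertilization, with SU5402 as filled red circles and DMSO as open blue squares, and lines through the means of the 2 libraries of a group. Panels run from the highest to the lowest ratio of late to early DMSO level. In every panel the late red points lie below the late blue points at the same time, while the early points overlap in 11 to 13 contigs at each time.

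ContigAmph25109, ContigAmph12413 and ContigAmph12414 had far higher control levels in the late series, at 15.8, 7.84 and 5.95 times the early DMSO mean. ContigAmph25109 had 52 and 49.5 CPM in SU5402 against 96.7 and 94 CPM in DMSO at 18.5 hpf, 25.3 and 29.6 against 108 and 113 CPM at 21.5 hpf, and 59.8 and 47.6 against 183 and 206 CPM at 24.5 hpf. Its SU5402 mean was 0.532, 0.248 and 0.276 times the DMSO mean at these times. No other of the 16 was lowered as far at 9 h. Its SU5402 level was 2.95 to 5.77 times that of DMSO at 14 hpf. These multiples rest on early DMSO libraries that lay far apart, 2.84 and 15.8 CPM at 14 hpf. Without the early DMSO libraries numbered 1 the range was 1.74 to 3.4 and the ratio of late to early DMSO 8.59, and without those numbered 2 the range was 9.67 to 18.9 and the ratio 101.3, alternatives chosen after seeing the data.

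ContigAmph12413 and ContigAmph12414 bear consecutive numbers and had close levels. The ratio of their group means ran from 0.58 to 1.04 over the 12 groups. ContigAmph12414 had 8.02 and 8.39 CPM in SU5402 against 20.5 and 19.9 CPM in DMSO at 18.5 hpf, 12.3 and 13.7 against 34.2 and 34.4 CPM at 21.5 hpf, and 16.2 and 15.2 against 33.4 and 32.3 CPM at 24.5 hpf. ContigAmph12413 had group means of 8.56, 12.5 and 14.7 CPM in SU5402 and 20.4, 31.4 and 28.4 CPM in DMSO. Whether both belong to 1 gene is not given in the table, and the pair may not be independent. The late SU5402 ratios were 0.379 to 0.478 for ContigAmph12414 and 0.398 to 0.518 for ContigAmph12413, and in both contigs the level was higher at 24.5 than at 18.5 hpf in both treatments.

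A second group of 4 contigs, ContigAmph94498, ContigAmph96479, ContigAmph18718 and ContigAmph91790, had 2.62 to 3.19 times as much in DMSO at 18.5 hpf as in DMSO at 14 hpf. In SU5402 embryos they stood at 0.645 to 1.99 times the 14 hpf level over the 3 late times. ContigAmph94498 had 7.8 and 8.18 CPM in SU5402 against 19.8 and 17.8 CPM in DMSO at 18.5 hpf, 4.19 and 5.61 against 16.5 and 17.6 CPM at 21.5 hpf, and 7.12 and 6.77 against 17.6 and 18.1 CPM at 24.5 hpf. The DMSO mean at 14 hpf was 6.98 CPM, close to SU5402 at 24.5 hpf. ContigAmph18718 was lowest at 21.5 hpf, with 1.64 and 1.61 CPM in SU5402 and 6.52 and 6.17 CPM in DMSO. ContigAmph96479 had its lowest ratio at the same time, 0.321. ContigAmph91790 was the least lowered of the 16 at 3 h, at 0.624.

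In the other 9 contigs SU5402 embryos stood below the 14 hpf control at all 3 late times, at 0.0969 to 0.655 times its level. DMSO at 18.5 hpf was itself 0.521 to 1.32 times the 14 hpf level in these 9, above it in ContigAmph12653 and ContigAmph46346. ContigAmph93921 had the lowest late ratio at 3 h, with 2.27 and 1.99 CPM in SU5402 against 8.69 and 8.86 CPM in DMSO, and at 6 h had 1.51 and 1.23 against 5.71 and 4.69 CPM. At 9 h it had 3.1 and 3.46 against 5.62 and 6.23 CPM. In the early series the same contig had 53 and 54.2 CPM in SU5402 and 68.5 and 63.9 CPM in DMSO at 8 hpf, and by 18.5 hpf both treatments were far below those levels.

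ContigAmph10684 kept nearly equal levels through early exposure, with all 4 library ratios inside the band at each time. It then stood at 11.3 and 9.99 CPM in SU5402 against 35.5 and 35.9 CPM in DMSO at 18.5 hpf, 8.65 and 9.53 against 23.6 and 25.9 CPM at 21.5 hpf, and 15.6 and 15.1 against 25.3 and 27.6 CPM at 24.5 hpf. ContigAmph34000 had 4.51 and 4.66 CPM in SU5402 against 13.4 and 13.7 CPM in DMSO at 18.5 hpf, and 12.1 and 11.1 against 22.6 and 23.1 CPM at 24.5 hpf. ContigAmph21275, which with ContigAmph25109 took the largest share of reads in late DMSO libraries, had 15.9 and 17.1 CPM in SU5402 and 50.8 and 50.1 CPM in DMSO at 21.5 hpf. ContigAmph46346 had 2.46 and 2.6 CPM in SU5402 and 7.66 and 9.15 CPM in DMSO at 18.5 hpf. ContigAmph90163 had the mildest difference at 6 h, 0.567, with 0.513 at 3 h and 0.584 at 9 h. ContigAmph3536 and ContigAmph12653 came nearest to DMSO at 9 h, at 0.593 and 0.592.

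**Figure D3:**
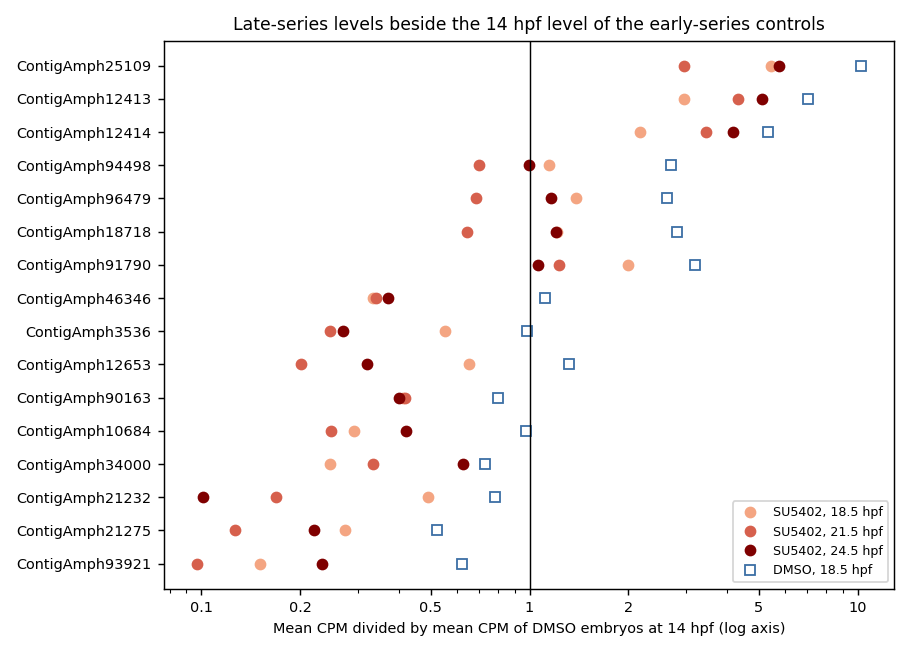
Mean CPM of the late SU5402 groups (filled circles, darker with time) and of DMSO at 18.5 hpf (open squares), each divided by mean DMSO CPM at 14 hpf in the early series (log axis). The black line marks the 14 hpf level. The 3 contigs at the top stay above it with SU5402 at all 3 times, and the 9 at the bottom stay below it, between 0.0969 and 0.655.

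The ratio to DMSO changed with exposure time in different ways. Medians over the 16 were 0.462 at 3 h, 0.367 at 6 h and 0.513 at 9 h, beside 0.967, 1.01 and 1.04 over the 14452 contigs with the same DMSO levels. The ratio was lowest at 6 h in 10 contigs, at 3 h in 5 and at 9 h in 1. Libraries of 6 h exposure were shallower and made with 15 PCR cycles in place of 12, in both treatments alike, and the part of this in the 6 h ratios was not tested. Counts of a member in them went down to 16 reads in SU5402 late, 51 in DMSO late and 8 in early libraries. Between 3 h and 9 h the log2 ratio went furthest down in ContigAmph25109, by a difference of -0.95, and ContigAmph21232, with -0.72. It came back most in ContigAmph93921, with 1.19, and ContigAmph10684, with 0.96. In 10 of the 16 it moved by at most 0.58 either way.

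Change over time within 1 treatment was not itself used by the rule and was tested, in libraries that the rule also used. From edgeR's quasi-likelihood fit of the 12 late libraries, with Benjamini-Hochberg adjusted p under 0.05 over 73087 contigs, 5 of the 16 rose and 6 fell in SU5402 embryos at 24.5 hpf against 18.5 hpf. Of all contigs tested, 15.8% rose and 17.2% fell, and of the 14452 with the same DMSO levels 21.4% rose and 28.7% fell. In DMSO embryos 4 rose and 8 fell, beside 17.5% and 16% of all contigs tested and 17.8% and 36.2% of those with the same levels. The median log2 fold change of the 16 was -0.15 in SU5402 and -0.37 in DMSO. All contigs tested had -0.04 in SU5402 and -0.02 in DMSO, and those with the same levels -0.05 in SU5402 and -0.12 in DMSO. A requirement of 5 CPM at each late time limits how far a member could fall in DMSO.

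**Figure D4:**
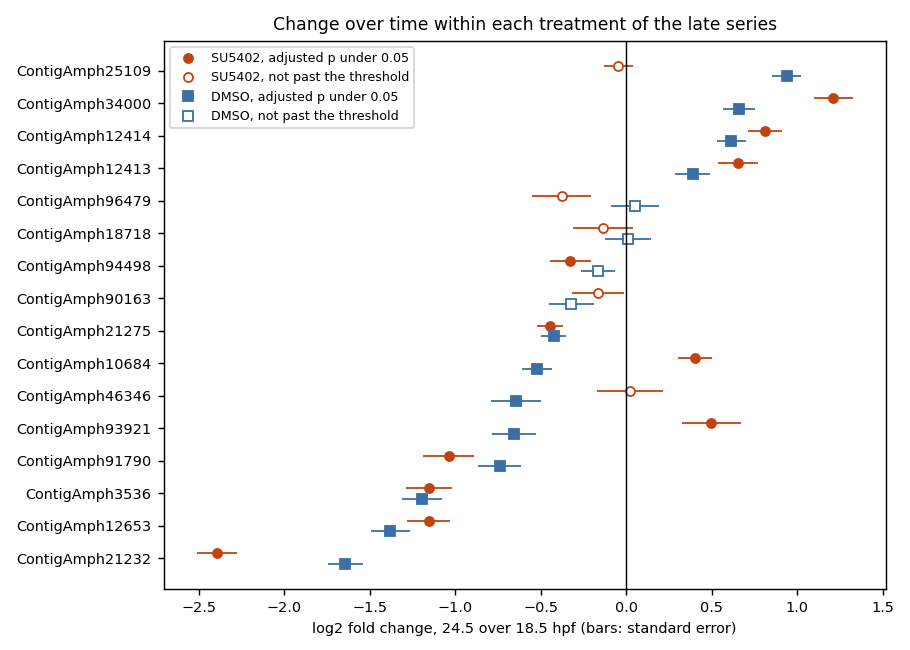
Log2 fold change at 24.5 against 18.5 hpf of each contig within SU5402 (red circles) and DMSO (blue squares) embryos of the late series, from the edgeR fit, with bars of 1 standard error and filled symbols where adjusted p was under 0.05. ContigAmph21232 lies lowest in both treatments, and ContigAmph10684 and ContigAmph93921 lie on opposite sides of 0.

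ContigAmph21232 fell most in both treatments. Its SU5402 libraries had 4.97 and 4.07 CPM at 24.5 hpf against 22.3 and 21.3 CPM at 18.5 hpf, giving a log2 difference of -2.40 (SE 0.12, adjusted p = 3.63e-15, edgeR). Its DMSO libraries had 11.1 and 12.8 CPM at 24.5 hpf against 35.3 and 34.8 CPM at 18.5 hpf, giving a log2 difference of -1.65 (SE 0.1, adjusted p = 3.71e-13, edgeR). ContigAmph12653 also fell in both, by log2 fold changes of -1.16 with SU5402 and -1.38 with DMSO (adjusted p = 3.6e-08 and 9.62e-11, edgeR). In all, 5 contigs fell in both treatments and 3, ContigAmph34000, ContigAmph12413 and ContigAmph12414, rose in both. The share of all contigs tested with such joint calls was not computed, so these counts, and those of joint calls below, are a description.

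ContigAmph34000 was higher at 24.5 hpf by 1.21 on the log2 scale with SU5402 (SE 0.11, adjusted p = 2.07e-09, edgeR) and 0.66 with DMSO (SE 0.09, adjusted p = 2.17e-06). ContigAmph12414 had 0.81 with SU5402 and 0.61 with DMSO (adjusted p = 1.83e-07 and 1.44e-06, edgeR). ContigAmph25109 had 53.7 ± 8.59 CPM at 24.5 hpf against 50.7 ± 1.74 CPM at 18.5 hpf with SU5402 (SD, n = 2; log2 fold change -0.05, adjusted p = 0.731, edgeR). It rose in DMSO, with 195 ± 16.3 against 95.3 ± 1.9 CPM (SD, n = 2; log2 fold change 0.94, adjusted p = 6.05e-10, edgeR). In 1 edgeR fit of all 24 libraries, which shares its estimate of spread with the early series, the DMSO log2 fold change of ContigAmph25109 was 0.97 and did not pass (adjusted p = 0.659). The rise of ContigAmph12413 in DMSO, a log2 fold change of 0.39, did not pass without DMSO late 3 h replicate 2 (adjusted p = 0.167, edgeR) or in the fit of all 24 libraries (adjusted p = 0.276). Its SU5402 rise, 0.65 (adjusted p = 6.58e-05, edgeR), did not pass in that fit either (log2 fold change 0.70, adjusted p = 0.0541).

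Only ContigAmph10684 and ContigAmph93921 of the 16 were called in opposite directions in the 2 treatments. ContigAmph10684 had a log2 fold change of 0.40 with SU5402 and -0.52 with DMSO (SE 0.1 and 0.09, adjusted p = 0.00247 and 2.67e-05, edgeR). ContigAmph93921 had 0.50 with SU5402 and -0.66 with DMSO (SE 0.17 and 0.13, adjusted p = 0.028 and 0.000181, edgeR). The SU5402 rises did not pass without SU5402 late 3 h replicate 2 (adjusted p = 0.0623 and 0.19), and that of ContigAmph93921 did not pass without SU5402 late 9 h replicate 2 (adjusted p = 0.179) or in DESeq2's Wald test (adjusted p = 0.133) either. A fall of ContigAmph94498 with SU5402, a log2 fold change of -0.33 (adjusted p = 0.0367, edgeR), did not pass when any 1 of the 4 SU5402 libraries compared was left out (adjusted p = 0.0888 to 0.155).

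In the early series, with a fit of the 12 early libraries over 77193 contigs, 3 of the 16 rose and 2 fell in SU5402 embryos at 14 hpf against 8 hpf, beside 23.2% and 19.5% of all contigs tested and 39.5% and 24.6% of those with the same levels. In DMSO embryos 4 rose and 3 fell, beside 20.6% and 20.3% of all contigs tested and 35.4% and 25.7% of those with the same levels. The rule held the ratio of mean SU5402 to mean DMSO CPM within the band at both 8 and 14 hpf. It thus limits how far the early changes of the 2 treatments could differ, and early calls shared by both treatments are a description. ContigAmph93921 fell in both, to 18 ± 0.293 CPM at 14 hpf against 53.6 ± 0.797 CPM at 8 hpf with SU5402 (SD, n = 2; log2 fold change -1.77, adjusted p = 1.17e-06, edgeR). In DMSO it had 14.1 ± 0.514 against 66.2 ± 3.31 CPM (log2 fold change -2.40, adjusted p = 1.98e-07, edgeR). ContigAmph90163 rose in both, with log2 fold changes of 1.09 in SU5402 and 1.21 in DMSO (adjusted p = 0.00125 and 0.000645, edgeR). ContigAmph34000 fell in both, with -1.55 in SU5402 and -1.18 in DMSO (adjusted p = 0.00149 and 0.00702, edgeR), and the DMSO fall did not pass without DMSO early 9 h replicate 1 (adjusted p = 0.063).

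ContigAmph46346 had a log2 fold change of 0.63 in SU5402 (adjusted p = 0.0612, edgeR) and rose in DMSO, with 1.34 (adjusted p = 0.00153). ContigAmph94498 rose in both, with 0.67 in SU5402 and 0.82 in DMSO (adjusted p = 0.0201 and 0.00726, edgeR). Its SU5402 rise passed without SU5402 early 3 h replicate 2 and did not pass without any other of the 4 libraries (adjusted p = 0.0668 to 0.113), and its DMSO rise did not pass without DMSO early 3 h replicate 1 (adjusted p = 0.054). ContigAmph21232 rose in SU5402, with 0.69 (adjusted p = 0.0275, edgeR), passing without SU5402 early 3 h replicate 1 and not without any other of the 4 (adjusted p = 0.0558 to 0.168). ContigAmph3536 rose and ContigAmph12414 fell in DMSO (adjusted p = 0.04 and 0.0295, edgeR), and neither passed without DMSO early 9 h replicate 1 or without DMSO early 3 h replicate 2 (adjusted p = 0.129 to 0.309), nor ContigAmph12414 without DMSO early 3 h replicate 1 (adjusted p = 0.0695).

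Set side by side, DMSO calls in the series took several forms. ContigAmph34000 and ContigAmph12414 rose in the late and fell in the early interval. ContigAmph3536 and ContigAmph46346 fell in the late and rose in the early interval, ContigAmph93921 fell in both, and no contig rose in both. Early DMSO calls of ContigAmph34000, ContigAmph12414 and ContigAmph3536 depended on single libraries, as given above. Shares of all contigs tested with such pairs of calls were not computed. The 16 contigs thus share the values that chose them and no single course in control embryos.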

How the data were processed

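The deposited table holds raw read counts per contig in 24 libraries, 1 column per sample, per the file headers. The submitters' processing notes name BWA 0.6.1. How the contigs were assembled and how reads were assigned to them is not stated there, and libraries do not mark strand, per the labels' protocols. Counts were divided by column totals to give CPM and the membership rule was applied. The contigs, the rule and the tests were chosen with earlier results of these data known. Changes over time were tested with edgeR 4.0.16 in R 4.3.3 (filterByExpr, TMM, glmQLFTest, two-sided, Benjamini-Hochberg) on each series' 12 libraries, with 1 coefficient per group and 6 residual degrees of freedom. The biological coefficient of variation was 27.2% in the early and 6.83% in the late series. In the early series it was 23.1% with the replicate number as a block and 10.9% with the 9 h SU5402 numbers also crossed. The crossing was chosen after seeing the data. The early fit reported here leaves the number out, so its spread includes differences that go with the number. The SE is the absolute log2 fold change divided by the square root of F. The p-values reflect variation among libraries that may be technical replicates. On simulated counts, changes of 2-fold were recovered for 97% of 67 contigs in the late series (70101 contigs) and 14.9% of 67 in the early series (72989 contigs). Of the simulated calls 4.92% were false in the late and 7.35% in the early series. Far fewer contigs changed in the simulation than in the data, which makes the adjusted threshold stricter there. The shares recovered are therefore not those of the tests reported here. All members passed the filter. Named contigs are those with the largest ratios, levels or changes, the smallest p in each tested change, and those nearest the limits; others were named to account for every member after their values were seen. DESeq2 1.42.0 was an alternative.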

Additional observations from a re-analysis of the deposited data

Results flagged for a closer look

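ContigAmph10684 and ContigAmph93921 stood out because both SU5402 libraries at 24.5 hpf lay above both at 18.5 hpf while both DMSO libraries at 24.5 hpf lay below both at 18.5 hpf. The change over time in SU5402 minus that in DMSO was 0.96 for ContigAmph10684 and 1.19 for ContigAmph93921 on the log2 scale of group means. The difference itself was not tested, since the same SU5402 to DMSO ratios chose the contigs.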

How the results depend on the processing

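The number of contigs found, 16, moved with every limit of the rule. It was 20 with DMSO minima of 2 and 1 CPM, 10 with TMM factors, 1 with a late limit of 0.5 and 55 with 0.8, 46 with an early band of 0.67 to 1.5 and 5 with a band from 0.85 to its inverse, 5 with DMSO minima of 10 and 4 CPM, and 3 with every early library ratio inside the band. On the libraries of 1 number alone it was 16 to 30, of which 6 to 7 were among the 16, and with the SU5402 early 9 h numbers crossed 16 to 37, of which 8 to 10 were. Of the changes over time, 1 fit of all 24 libraries gave 2 risen in DMSO late, 5 fallen in DMSO early and 4 fallen in SU5402 early embryos. Library totals gave 5 risen and the 4 libraries compared alone 4 fallen in SU5402 early embryos. Leaving out 1 library gave 3 to 5 risen in SU5402 late, 1 to 4 fallen in DMSO early and 1 to 2 risen in SU5402 early embryos. The replicate number as a block left the late counts as they were and gave 3 risen and 3 fallen in SU5402 early and 5 risen and 3 fallen in DMSO early embryos, adding a fall of ContigAmph12414 in SU5402 (adjusted p = 0.0296, edgeR) and a rise of ContigAmph21232 in DMSO (adjusted p = 0.014, edgeR). Same-numbered late libraries did not deviate together, with correlations of -0.204 to 0.0789. A block with the 9 h SU5402 numbers crossed, added after seeing the data, gave 5 risen and 4 fallen in SU5402 early and 6 risen and 5 fallen in DMSO early embryos. In no alternative run did a contig named by smallest p change direction. Library totals put the median change over all contigs at 0.23 (log2) in SU5402 early embryos, against 0.03 with TMM. In the libraries compared, the lowest count of a member was 56 reads in SU5402 late, 135 in DMSO late, 43 in SU5402 early and 20 in DMSO early embryos, which limits calls of small changes.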
